A study of Mus musculus with 4 samples.

Results

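The response of CMT64 cells to TNF-α alone was examined by setting the RNA of cells given TNF-α (10 ng/ml) for 24 h against that of control cells kept for the same 24 h without cytokine. CMT64 is a mouse lung carcinoma line with wild-type p53, and every condition comes from this 1 line. A second pair of libraries, from cells given TGF-β (5 ng/ml) together with TNF-α (10 ng/ml) and from cells given TGF-β alone (5 ng/ml), shares no library with the first and is set beside it. Each of the 4 conditions had 1 library, so the variation among cultures is unknown, no test was possible, and no p-value is given. The comparison covers the 11598 genes, of 25704 listed, that had at least 100 exon reads summed over the TNF-α and control libraries. In the TGF-β pair 11664 genes met the same minimum, and 11283 met it in both.

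TNF-α is a cytokine that binds the receptors encoded by Tnfrsf1a and Tnfrsf1b. The bound receptor gathers adaptor proteins (Tradd, Traf2, Ripk1) and activates the IκB kinase, which marks the inhibitor IκBα (Nfkbia) for destruction and so frees NF-κB dimers to enter the nucleus and bind κB sites in promoters and enhancers. Among the genes known to be switched on by NF-κB are its own inhibitors, the deubiquitinase A20 (Tnfaip3), chemokines that attract leukocytes, and adhesion molecules.

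The TNF-α library held 77606742 mapped reads and the control library 75358896, as implied by the deposited RPKM (exon reads scaled to the length of the exons and to the number of mapped reads). A gene was counted as higher where the RPKM fold passed 2 (or 1.5) and the RPKM with TNF-α was above 2, and as lower where the fold was under the inverse limit and the RPKM in control cells was above 2. Intervals in parentheses are 95% counting intervals, exact for 2 read counts, and cover counting error only. Over 2-fold higher with TNF-α were 24 genes (0.207% of the 11598), and over 2-fold lower 7 genes (0.0604%). At the 1.5-fold limit there were 179 higher (1.54%) and 73 lower genes (0.629%). For 16 of the 24 the whole interval lay above 2, and for 2 of the 7 it lay wholly under 0.5. Of the 24 higher genes 6 were unnamed gene models, and 8 had under 50% of their exon reads mapped to a unique place, so that their reads are shared with near copies or overlapping genes. Of the 7 lower genes 3 were unnamed models, and 3 had under 50% unique reads. Most genes stood close to control, 76.0% of them within 1.25-fold. In such bulk RNA, fewer cells that express a gene and less of its RNA per cell cannot be told apart.

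Base composition moved with this comparison. Across 11593 genes, Spearman's rho between the log2 fold and the GC content of the longest annotated transcript was -0.63 for TNF-α over control, against 0.09 across 11658 genes for TNF-α with TGF-β over TGF-β alone. In 10 bins of genes ordered by GC content, the median log2 fold of TNF-α over control was 0.28 in the bin of lowest GC (median 39.6%) and -0.25 in the bin of highest GC (median 59.7%), while in the TGF-β pair the bin medians lay between -0.02 and 0.03. These are descriptions across genes, which share their libraries and are not replicates. Of the 179 genes over 1.5-fold higher, 121 (67.6%) lay in the 2 bins of lowest GC and 5 (2.79%) in the 2 of highest GC. Of the 73 lower genes, 2 (2.74%) lay in the lowest 2 bins and 47 (64.4%) in the highest 2. Whether the trend came from the libraries or from the cells cannot be told apart with 1 library each. Each fold is therefore followed, where it matters, by a GC-centred fold, from which the median of the gene's own GC bin was taken away. Transcript length moved with the comparison as well, and GC centring did not take that away. Spearman's rho between log2 fold and transcript length was 0.39, and 0.31 after GC centring, against -0.28 as measured in the TGF-β pair. After centring, 65 of 11593 genes (0.561%) were over 1.5-fold higher and 44 (0.38%) over 1.5-fold lower. Of the 179 genes 54 (30.2%) stayed past the limit, and of the 73 genes 33 (45.2%). The higher genes at the 2-fold limit held better, with 19 of 24 (79.2%) past 2-fold also after centring.

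**Figure D1:**
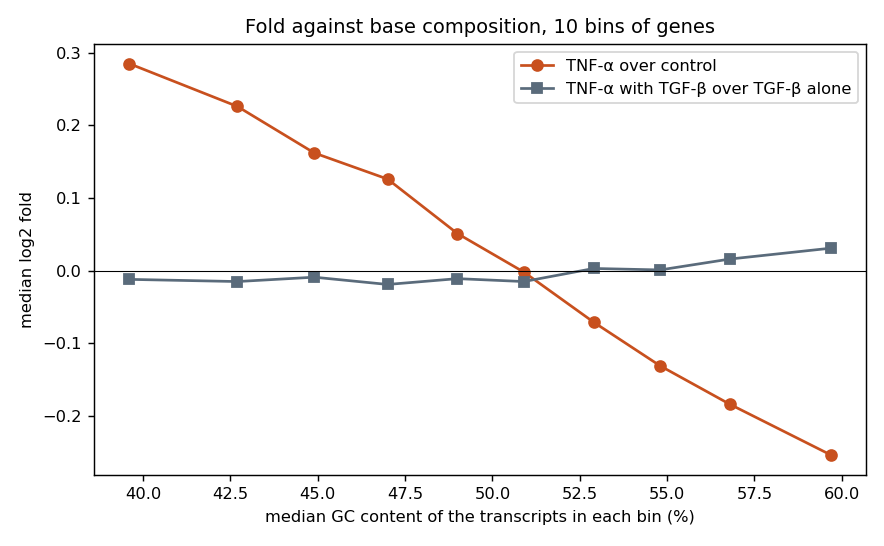
Median log2 fold (vertical axis) of the genes in each of 10 equal bins against the median GC content of their transcripts in percent (horizontal axis), for TNF-α over control (circles) and TNF-α with TGF-β over TGF-β alone (squares). The circles run from 0.28 at 39.6% GC to -0.25 at 59.7% GC, and the squares stay between -0.02 and 0.03.

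Genes of the NF-κB machinery had the highest median fold of the 36 gene lists. The list of subunits and inhibitors holds 11 genes, of which 10 had enough reads, and 4 of these (Nfkbia, Relb, Nfkbie, Bcl3) were over 1.5-fold higher and none lower, where 1.54% of all genes were higher. The median log2 fold of the 10 was 0.58, against 0.01 over all genes. It was 0.59 after GC centring, which brings Nfkb2 over the limit as well, and 0.50 for TNF-α added to TGF-β.

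Nfkbia (chr12:55489410-55492647, minus strand, mm10), which encodes IκBα and so retains NF-κB in the cytoplasm, had 51.4 RPKM with TNF-α and 18.8 RPKM in control cells, a fold of 2.73 (2.60 to 2.86) from 6291 against 2239 reads. With TGF-β present its level was 26.8 RPKM with TNF-α and 12.3 RPKM without, a fold of 2.18 (2.06 to 2.32). Relb (chr7:19606217-19629438, minus strand), the subunit of the alternative pathway that pairs with p52, had 10.0 RPKM with TNF-α and 4.58 RPKM in control cells, a fold of 2.18 (2.02 to 2.36), and 2.58-fold (2.39 to 2.79) with TGF-β present. The less abundant inhibitor IκBε (Nfkbie) had 2.20 RPKM with TNF-α and 1.04 RPKM in control cells, a fold of 2.11 (1.77 to 2.52), and 2.87-fold (2.41 to 3.42) with TGF-β present. Both pairs thus had these 3 genes over 2-fold higher with TNF-α.

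Bcl3, a nuclear IκB protein that binds p50 and p52 dimers, was 1.62-fold higher with TNF-α (1.55 to 1.69), and Nfkb2, which encodes the precursor of p52, 1.44-fold (5566 against 3758 reads). Both have GC-rich transcripts (62.6% and 59.4%), and GC-centred their folds were 1.93 and 1.72. Rel, with a GC-poor transcript (42.5%), had 1.85 RPKM with TNF-α and 1.19 RPKM in control cells, 1.56-fold (1.41 to 1.72), and a centred fold of 1.33. The main activating subunits were near 1, with folds of 0.95 (0.92 to 0.98) for Rela and 1.11 (1.07 to 1.15) for Nfkb1, and so were Nfkbib (0.99) and Nfkbiz (1.11).

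Reads in introns, which the exon counts leave out, stood in the same order for these genes. Relb had 651 intron reads with TNF-α and 160 in control cells, and Nfkbia had 219 with TNF-α and 62 in control cells. Bcl3 had 948 with TNF-α and 506 in control cells, and Tnfaip3 had 273 with TNF-α and 110 in control cells. Over the whole library, too, introns took more of the gene reads with TNF-α, 8.16% against 6.72% in control cells. Its part in the intron counts of single genes was not tested.

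Promoters of 6 NF-κB targets are shown because κB sites are where the freed factor binds, and these 6 were picked for holding a match. C3, C1s1, Icam1, Birc3 and Mmp13 had no match in the window searched, and the promoters of Relb, Nfkb1, Vcam1, Cxcl5 and Cxcl16 were not analysed here. The stretch from 150 bases before to 10 bases after the start site is given 5′ to 3′ on the gene's strand (RefSeq, GRCm38.p6), with matches to the κB motif, 10 bases searched by its usual degenerate form on both strands, in capitals. Overlapping matches run together.
Nfkbia, chr12:55492638-55492797, minus strand: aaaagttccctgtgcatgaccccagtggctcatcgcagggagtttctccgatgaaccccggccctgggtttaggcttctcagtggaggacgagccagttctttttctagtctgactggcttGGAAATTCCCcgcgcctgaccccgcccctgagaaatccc
Nfkbie, chr17:45555550-45555709, plus strand: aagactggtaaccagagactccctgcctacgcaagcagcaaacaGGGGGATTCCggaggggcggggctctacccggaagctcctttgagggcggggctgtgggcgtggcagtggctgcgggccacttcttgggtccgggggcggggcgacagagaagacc
Nfkb2, chr19:46304587-46304746, plus strand: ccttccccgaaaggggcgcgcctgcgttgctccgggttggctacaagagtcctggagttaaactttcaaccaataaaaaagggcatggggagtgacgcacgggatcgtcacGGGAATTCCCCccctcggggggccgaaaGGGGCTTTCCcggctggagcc
Tnfaip3, chr10:19015401-19015560, minus strand: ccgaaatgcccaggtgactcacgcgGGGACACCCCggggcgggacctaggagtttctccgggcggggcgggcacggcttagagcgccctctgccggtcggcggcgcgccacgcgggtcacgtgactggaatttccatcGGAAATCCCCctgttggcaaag
Cxcl3, chr5:90785951-90786110, plus strand: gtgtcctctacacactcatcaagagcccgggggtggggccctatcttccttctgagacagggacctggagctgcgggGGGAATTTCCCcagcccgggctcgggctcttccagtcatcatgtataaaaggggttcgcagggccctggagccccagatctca
Ccl20, chr1:83116616-83116775, plus strand: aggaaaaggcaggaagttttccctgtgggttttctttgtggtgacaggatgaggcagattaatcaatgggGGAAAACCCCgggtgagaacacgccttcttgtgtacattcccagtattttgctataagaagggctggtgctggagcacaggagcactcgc

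The first base of the match lay 29 bases before the start site in Nfkbia, 106 in Nfkbie, 39 and 11 in Nfkb2, 125 and 12 in Tnfaip3, 73 in Cxcl3 and 80 in Ccl20. In the whole RefSeq table the motif was present in 8.46% of 32851 promoters of 300 bases, and 1136 of the 9092 tested genes with a promoter in the table (12.5%) had it. Of the genes over 1.5-fold higher as measured, 14 of the 126 with a promoter had it (11.1%), near the share of all tested genes. Of the genes over 1.5-fold higher after GC centring, 14 of 42 had it (33.3%), while of the 90 that passed the limit as measured but not after centring 3 had it (3.33%). The motif itself is rich in G and C, and the base composition of promoters was not matched between these sets, so its part in the shares was not tested. The 14 centred genes with a match were Bcl3, Csf1, Cxcl3, Neurl3, Nfkb2, Nfkbia, Nfkbie, Nin, Nr2c2, Rnf213, Tmem176a, Tmem176b, Tnfaip3 and Traf3. A match is a description of letters in a short window and not a bound site.

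The list of feedback and ubiquitin editing genes had 13 of 14 members measured and a median log2 fold of 0.23. Of these, 1 was over 1.5-fold higher and none lower, against 1.54% and 0.629% of all genes. The gene past the limit was Tnfaip3, whose product A20 removes ubiquitin chains from Ripk1 and damps the signal, with 12.1 RPKM with TNF-α and 5.66 RPKM in control cells, 2.15-fold (2.04 to 2.26). With TGF-β present it had 22.96 RPKM with TNF-α and 17.4 RPKM without, 1.32-fold (1.28 to 1.37). Tnip3, which binds A20, had the largest fold of the list at a low level, with 0.932 RPKM with TNF-α and 0.135 RPKM in control cells (292 and 41 reads), 6.92-fold (4.98 to 9.84), and 9.29-fold (6.74 to 13.1) with TGF-β present. It stayed outside the count because its RPKM was under 2. The apoptosis inhibitor Birc3 (cIAP2) was likewise low, 0.881 RPKM with TNF-α and 0.585 RPKM in control cells, 1.51-fold (1.25 to 1.81), and its neighbour Birc2 and the deubiquitinase Cyld were 1.46-fold and 1.40-fold. The GC-centred folds of Birc2 and Cyld were 1.25 and 1.20, and with TGF-β present their folds were 1.02 and 1.09. Traf1, an adaptor that NF-κB induces, was under the read minimum with 59 reads with TNF-α and 26 in control cells.

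**Figure D2:**
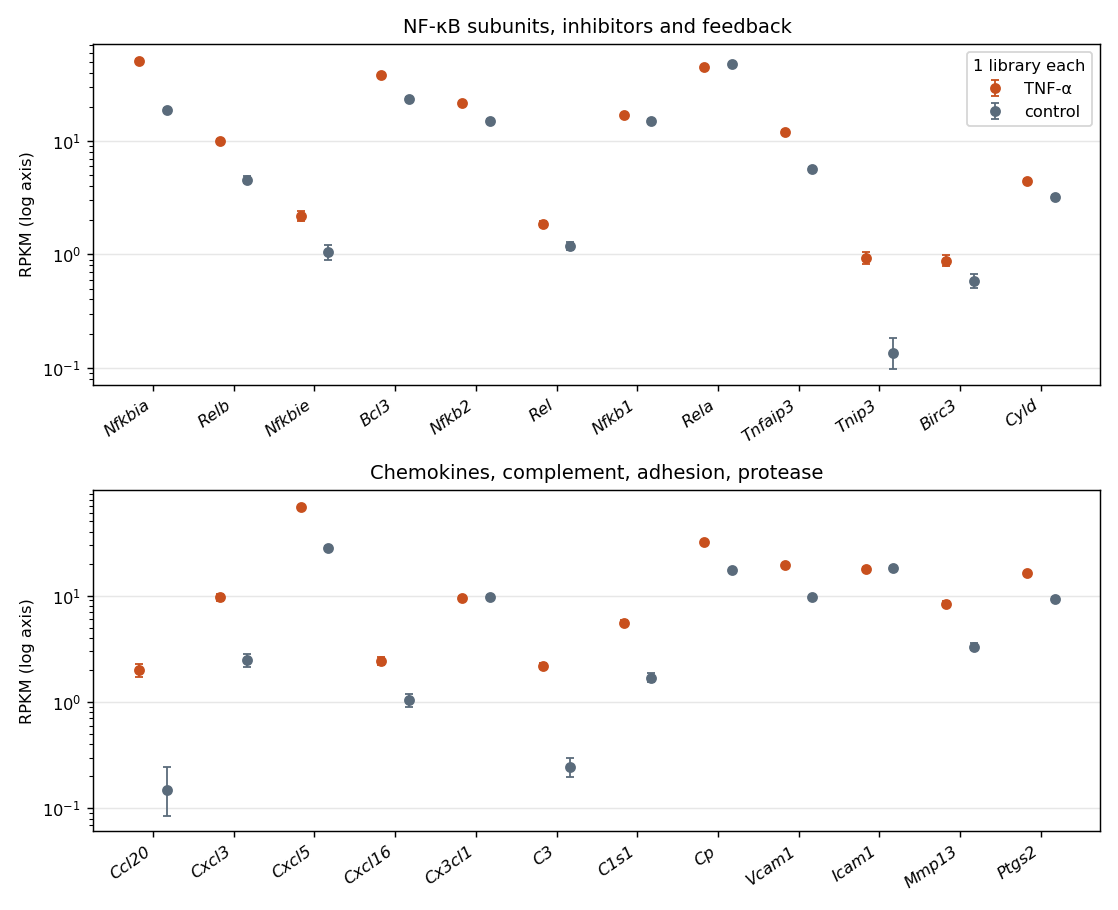
RPKM (log axis) of 24 genes with TNF-α (left point of each pair) and in control cells (right point), 1 library each, with 95% exact Poisson intervals of the read counts as bars. Nfkbia stands at 51.4 with TNF-α and 18.8 in control cells and Ccl20 at 1.98 with TNF-α and 0.149 in control cells, while Rela, Icam1 and Cx3cl1 have nearly level pairs.

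The components that carry the signal from the receptor differed little. All 23 genes of the TNF receptor signal list were measured, 0 were over 1.5-fold higher or lower, and the median log2 fold was 0.06. With 1.54% of all genes higher and 0.629% lower, a count of 0 among 23 is near the share of all genes. Tnfrsf1a, the main receptor, had 39.0 RPKM with TNF-α and 44.9 RPKM in control cells, 0.868-fold (0.841 to 0.896), and 0.986-fold after GC centring. Tnfrsf1b was 1.15-fold (1.07 to 1.22), Tradd 0.887-fold, Ripk1 1.16-fold and Ikbkb 1.01-fold. The largest fold of the list was that of Traf3, an adaptor that restrains the alternative pathway, with 8.79 RPKM with TNF-α and 5.90 RPKM in control cells, 1.49-fold (1.42 to 1.56), 1.56-fold after centring, and 1.31-fold (1.27 to 1.36) with TGF-β present. Ripk3, the kinase of necroptosis, was lowest at 0.707-fold (0.546 to 0.913) from 107 reads with TNF-α and 147 in control cells.

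Among 24 genes of the TNF and TNF receptor families 10 were measured, and 1 of them was over 1.5-fold lower and none higher. Over all genes 0.629% were lower and 1.54% higher. The lower one was Tnfsf9, the ligand 4-1BBL, with 5.91 RPKM with TNF-α and 10.5 RPKM in control cells, 0.564-fold (0.509 to 0.625). Its receptor Tnfrsf9 (4-1BB) stood the other way at a lower level, 1.39 RPKM with TNF-α and 0.581 RPKM in control cells, 2.40-fold (1.93 to 2.99), and 3.28-fold (2.73 to 3.95) with TGF-β present, although 39.5% of its reads were unique. Tnf itself had 4 reads with TNF-α and 0 in control cells.

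Chemokines made up the second group. Of 27 on the list 12 were measured, of which 3 (Cxcl3, Cxcl5, Cxcl16) were over 1.5-fold higher and none lower. Over all genes 1.54% were higher and 0.629% lower. Of the 12 measured chemokines 7 had a fold above 1. The median log2 fold of the 12 was 0.43, 0.23 after GC centring and 0.30 in the TGF-β pair. Cxcl5 (chr5:90759360-90761624), a neutrophil attractant, was the most abundant, with 68.4 RPKM with TNF-α and 28.0 RPKM in control cells, 2.44-fold (2.34 to 2.54), and 2.002-fold after centring. Its neighbour on chromosome 5, Cxcl3, which binds the same receptor, had 9.61 RPKM with TNF-α and 2.47 RPKM in control cells, 3.89-fold (3.32 to 4.59). Cxcl16, a membrane-bound chemokine, had 2.43 RPKM with TNF-α and 1.04 RPKM in control cells, 2.34-fold (1.99 to 2.76). With TGF-β present, where the levels of Cxcl5 and Cxcl3 were lower (14.0 and 1.52 RPKM with TNF-α, 4.92 and 0.836 RPKM without), the folds were 2.86 for Cxcl5, 1.81 for Cxcl3 and 3.22 for Cxcl16.

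The chemokine with the largest fold was Ccl20, the ligand of Ccr6, with 218 reads with TNF-α and 16 in control cells, 13.2-fold (7.97 to 23.6), and it was left out of the count because its 1.98 RPKM was just under 2. Ccl9 was 1.43-fold and 1.22-fold after centring, and Cxcl10 1.79-fold (1.35 to 2.39) from 144 reads with TNF-α and 78 in control cells, of which 33.3% were unique. Cx3cl1, at 9.46 RPKM with TNF-α and 9.71 RPKM in control cells, Ccl27a and Ccl28 had folds between 0.95 and 0.98. Cxcl17 was 0.711-fold (0.488 to 1.03) from 52 reads with TNF-α and 71 in control cells. Cxcl15 was 0.827-fold (0.651 to 1.05) from 132 reads with TNF-α and 155 in control cells. Their centred folds were 0.712 and 0.707. Under the read minimum stood Cxcl2, with 42 reads with TNF-α and 1 in control cells, a ratio of 40.8 (6.93 to 1649), and Ccl2, with 39 reads with TNF-α and 1 in control cells, a ratio of 37.9 (6.41 to 1534). Ccl5, another well-known NF-κB target, had 0 reads in both libraries.

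Complement genes held the highest fold of all named genes above 2 RPKM. C3 (chr17:57203970-57228136, minus strand), the central protein of the complement cascade, had 2.18 RPKM with TNF-α and 0.245 RPKM in control cells (868 and 95 reads), 8.87-fold (7.17 to 11.1), and 9.32-fold after centring. C1s1, a protease of the classical pathway, had 5.53 RPKM with TNF-α and 1.70 RPKM in control cells, 3.26-fold (2.91 to 3.67). The copper carrier ceruloplasmin (Cp) had 32.0 RPKM with TNF-α and 17.3 RPKM in control cells, 1.86-fold (1.81 to 1.91). These 3 were the members over 1.5-fold higher among 9 measured of a list of 20, and none was over 1.5-fold lower with more than 2 RPKM in control cells. Over all genes 1.54% were higher and 0.629% lower. With TGF-β present the folds were smaller, 1.38 (0.902 to 2.13) for C3 at 0.136 RPKM with TNF-α and 0.0983 RPKM without, 1.36 (1.29 to 1.43) for C1s1 and 1.26 (1.19 to 1.33) for Cp. C2 was 3.06-fold from 82 reads with TNF-α and 26 in control cells, of which 3.70% were unique, and Cfb, with 6.06% unique reads, was 1.19-fold, so both values are uncertain.

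Adhesion and secreted factors included single genes past the limit rather than whole lists. Vcam1 (chr3:116109949-116129688, minus strand), which leukocytes bind on activated endothelium, had 19.2 RPKM with TNF-α and 9.65 RPKM in control cells, 1.99-fold (1.91 to 2.07), 1.63-fold after centring, and 2.50-fold (2.28 to 2.75) with TGF-β present. Icam1, its usual companion, was level, with 17.9 RPKM with TNF-α and 18.3 RPKM in control cells, 0.979-fold (0.934 to 1.03). Of 9 measured adhesion genes Vcam1 was the 1 over 1.5-fold higher with an RPKM above 2, where 1.54% of all genes were. P-selectin (Selp) had a larger fold at a low level, 2.60 (1.85 to 3.72), with 0.447 RPKM with TNF-α and 0.172 RPKM in control cells. Csf1, the growth factor of macrophages, had 3.22 RPKM with TNF-α and 1.84 RPKM in control cells, 1.75-fold (1.59 to 1.93) and 1.92-fold after centring, but 1.03-fold with TGF-β present. Il1rn, the antagonist of the interleukin-1 receptor, was 1.69-fold (1.48 to 1.94), 1.45-fold after centring, and 0.928-fold with TGF-β present. Mmp13, a collagenase, had 8.42 RPKM with TNF-α and 3.31 RPKM in control cells, 2.54-fold (2.32 to 2.78), and 1.38-fold (1.29 to 1.48) with TGF-β present. Tissue factor (F3) was 1.77-fold (1.62 to 1.94) and the inducible cyclooxygenase Ptgs2 1.74-fold (1.66 to 1.81), of which the first stayed past 1.5-fold after centring (1.62) and the second did not (1.43).

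Other genes among the 12 with the highest folds have no well-known place in the TNF-α response. Ptar1 had 2.88 RPKM with TNF-α and 1.05 RPKM in control cells, 2.73-fold (2.28 to 3.28). Klhl11, of the Kelch-like family, was 2.48-fold (2.13 to 2.91) and Lcor, a nuclear receptor corepressor, 2.40-fold (2.18 to 2.65). With TGF-β present these 3 were close to 1 (1.04, 0.949 and 0.902), while after GC centring they stayed over 2-fold (2.24, 2.40 and 2.05). Prl2c2, which encodes a prolactin-related protein (proliferin), had 44.6 RPKM with TNF-α and 12.9 RPKM in control cells, 3.46-fold (3.22 to 3.72), and 3.26-fold (2.81 to 3.79) with TGF-β present. It shares its reads with close copies such as Prl2c3 (2.21-fold, the 13th of the order and just outside it), and 43.1% of its reads were unique, over which the fold was 3.47. Ceacam16 was 2.52-fold with 45.8% unique reads and had 930 reads in its introns with TNF-α and 420 in control cells. Chosen after its values were seen, the unnamed model Gm26992 on the X chromosome was 4.94-fold (4.41 to 5.55), with 173051 intron reads with TNF-α and 98554 in control cells, and 0.978-fold with TGF-β present.

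**Figure D3:**
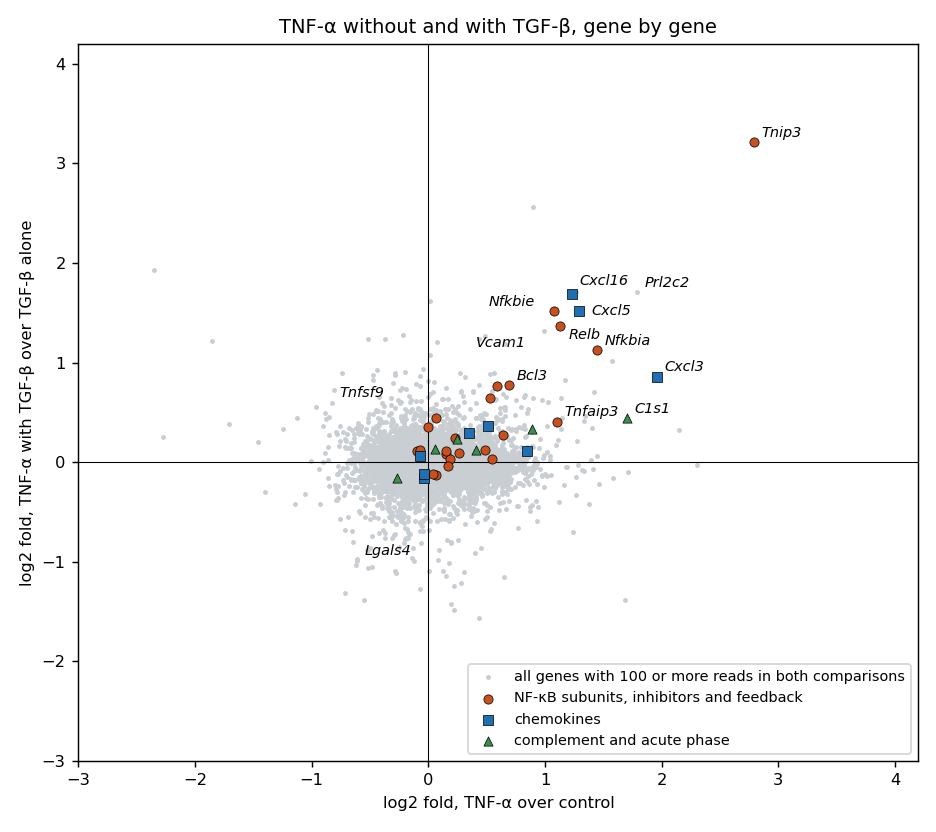
Log2 fold of TNF-α over control (horizontal axis) against log2 fold of TNF-α with TGF-β over TGF-β alone (vertical axis) for the 11283 genes with enough reads in both comparisons, with NF-κB genes as circles, chemokines as squares and complement genes as triangles. Nfkbia, Relb, Nfkbie, Cxcl5, Cxcl16, Vcam1 and Tnip3 lie high on both axes, C1s1 and Tnfaip3 lie further along the horizontal one, and C3, Ccl20 and Igfbp5 are missing because they had too few reads with TGF-β, as are 2 genes outside the axes.

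The lowest named fold was that of a secreted epithelial peptide. Tff3 (chr17:31125306-31129646, minus strand), a trefoil peptide of mucus, had 10.6 RPKM with TNF-α and 26.4 RPKM in control cells (405 and 982 reads), 0.401-fold (0.356 to 0.450) and 0.439-fold after centring. The thyroxine carrier transthyretin (Ttr) had 114 reads with TNF-α and 253 in control cells, 0.438-fold (0.348 to 0.548), and the cytochrome P450 Cyp2c65 had 207 with TNF-α and 448 in control cells, 0.449-fold (0.379 to 0.530). The ion channel subunit Lrrc26 was 0.494-fold (0.454 to 0.538) at 9.11 RPKM with TNF-α and 18.4 RPKM in control cells, and the gap junction protein Gjb1 0.504-fold (0.421 to 0.602). These 5 genes had at most 0.0553 RPKM in the libraries with TGF-β, so the second pair has no usable fold for them.

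Igfbp5 (chr1:72857932-72874884, minus strand), a binding protein of insulin-like growth factors, was the most abundant of the 12 lowest genes, with 46.3 RPKM with TNF-α and 85.8 RPKM in control cells, 0.539-fold (0.530 to 0.548) and 0.540-fold after centring. With TGF-β present it had 0.0285 RPKM with TNF-α and 0.139 RPKM without, 0.204-fold (0.104 to 0.373). Sema6b, a semaphorin, had 9.67 RPKM with TNF-α and 18.1 RPKM in control cells, 0.535-fold (0.511 to 0.560), but its transcript is GC-rich (63.5%), its centred fold was 0.638, and with TGF-β present the fold was 1.00. Hist1h4n, Clic3, Glod5, Ankrd37 and Yjefn3 made up the rest of the 12, with folds of 0.521 to 0.540 from 37 to 151 reads with TNF-α and 69 to 274 in control cells. The reads of Hist1h4n (13.2% unique) and Clic3 (49.5%) are largely shared with other genes. The model Gm49369, chosen after its values were seen, had the lowest fold above 2 RPKM, 0.207, but 0.444% of its reads were unique, and over those few unique reads the fold was 1.94, in the opposite direction.

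As a list, 8 gut and liver markers had a median log2 fold of -0.35 (-0.36 after centring), and all 8 were below 1. Of them 1, Tff3, was over 1.5-fold lower with more than 2 RPKM in control cells, where 0.629% of all genes were. Alb was 0.615-fold (0.467 to 0.807) at a low level, 0.570 RPKM with TNF-α and 0.926 RPKM in control cells. Tff1 had 1014 RPKM with TNF-α and 1465 RPKM in control cells, 0.693-fold (0.683 to 0.702), and the brush border protein villin (Vil1) 14.0 RPKM with TNF-α and 19.7 RPKM in control cells, 0.709-fold (0.678 to 0.741), whereas the transcription factors Hnf4a and Cdx2 were 0.973-fold and 0.939-fold. Lgals4, a galectin of gut epithelium, had 412.6 RPKM with TNF-α and 629.0 RPKM in control cells, 0.656-fold (0.648 to 0.664), and 0.503-fold (0.463 to 0.546) with TGF-β present. Of 15 mucin and secretory genes 6 were measured, 1 of which (Tff3) was over 1.5-fold lower and none higher, with a median log2 fold of -0.34. The trefoil peptide Tff2 stood the other way, with 185.4 RPKM with TNF-α and 160.6 RPKM in control cells, 1.16-fold (1.12 to 1.19), and 1.21-fold after centring. The cell surface protein Psca was 0.610-fold (0.559 to 0.666) in the first pair and 0.622-fold (0.539 to 0.718) in the second. Lgals4 and Psca, which the naming rule did not take, were the 2 genes over 1.5-fold lower in both as measured. After GC centring of the first pair their folds were 0.718 and 0.693, short of the 1.5-fold limit.

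**Figure D4:**
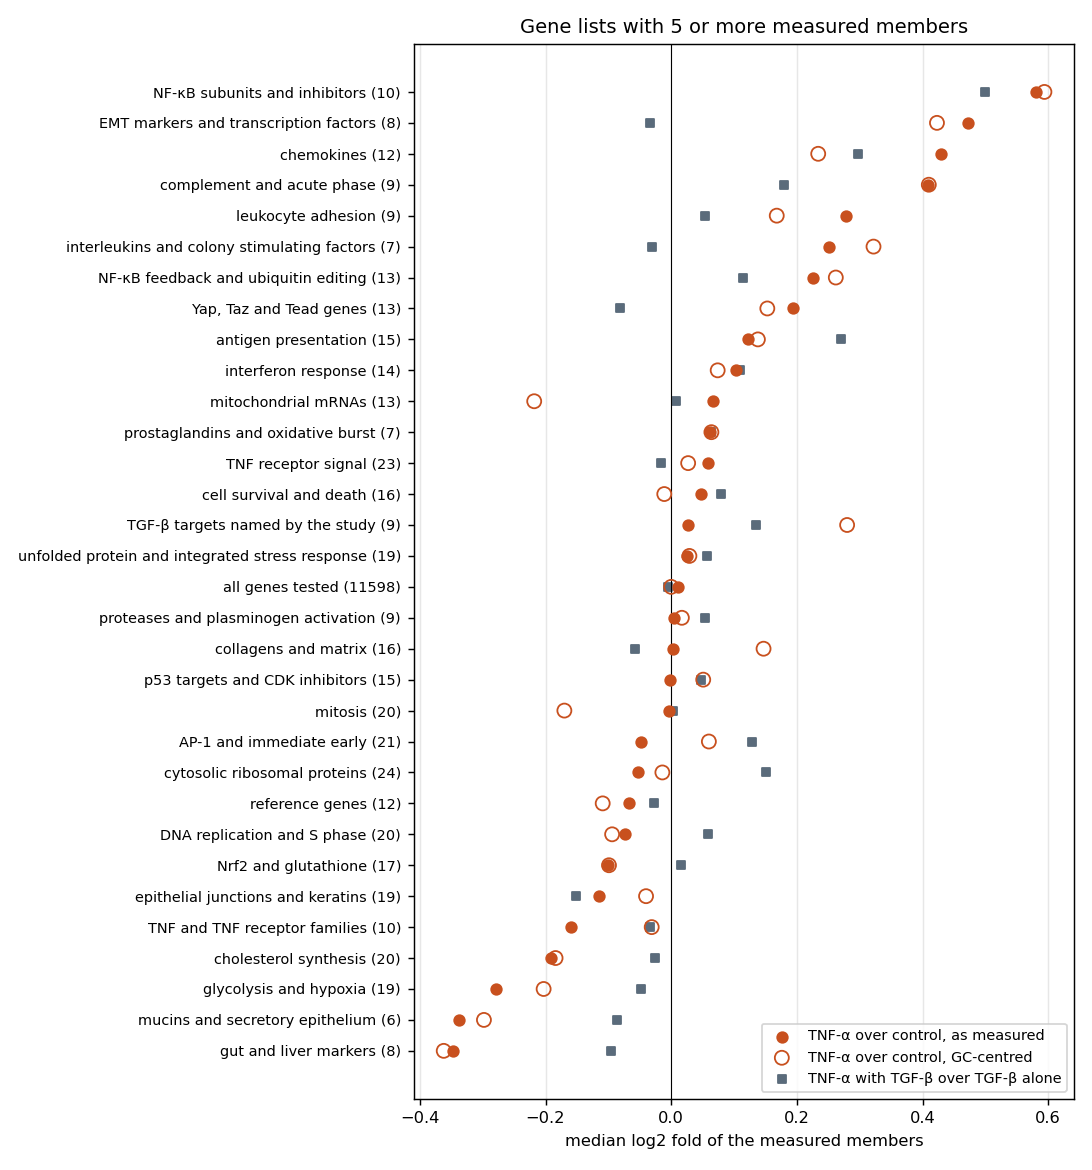
Median log2 fold (horizontal axis) of the measured members of each gene list, with the number of members in parentheses, for TNF-α over control as measured (filled circles) and GC-centred (open circles) and for TNF-α with TGF-β over TGF-β alone (squares). NF-κB subunits and inhibitors stand highest in all 3 (0.58, 0.59 and 0.50), EMT genes are high for TNF-α over control (0.47) and near 0 in the TGF-β pair (-0.03), and gut and liver markers are lowest (-0.35).

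Small shifts ran through some metabolic lists without reaching the 1.5-fold limit. Of all 11598 genes 5993 had a fold above 1. Of 19 measured glycolysis and hypoxia genes 3 were above 1, with a median log2 fold of -0.28 (-0.20 after centring, -0.05 in the TGF-β pair) and no member past 1.5-fold. The shares of all genes past 1.5-fold were 1.54% higher and 0.629% lower. The glucose transporter Slc2a1 had 51.4 RPKM with TNF-α and 71.8 RPKM in control cells, 0.716-fold (0.701 to 0.732), and the glycolytic enzyme Tpi1 1101 RPKM with TNF-α and 1409 RPKM in control cells, 0.781-fold (0.776 to 0.786). Of 20 cholesterol synthesis genes 4 were above 1, with a median of -0.19 (-0.18 after centring, -0.03 in the TGF-β pair). The cystine transporter Slc7a11, in contrast, had 18.3 RPKM with TNF-α and 10.2 RPKM in control cells, 1.80-fold (1.75 to 1.85), and 1.48-fold after centring.

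The EMT list had a median log2 fold of 0.47, of 0.42 after centring, and of 0.28 after centring on both GC and transcript length. Of 8 measured markers and transcription factors, 2 were over 1.5-fold higher and none lower, against 1.54% and 0.629% of all genes. The 2 were Hmga2 with 76.1 RPKM with TNF-α and 48.0 RPKM in control cells (1.58-fold, 1.55 to 1.62) and Snai2 with 5.33 RPKM with TNF-α and 3.32 RPKM in control cells (1.61-fold, 1.44 to 1.80). Zeb2, which represses epithelial genes, was 1.66-fold (1.48 to 1.87) at 0.870 RPKM with TNF-α and 0.524 RPKM in control cells, and Zeb1 1.44-fold. All 4 have transcripts of 40.6% to 46.1% GC, their centred folds were 1.42, 1.37, 1.36 and 1.32, no EMT gene passed 1.5-fold after centring, and with TGF-β present their folds were 1.01, 0.847, 1.10 and 1.18. The epithelial cadherin Cdh1 (252.8 RPKM with TNF-α and 251.0 RPKM in control cells, 1.01-fold), vimentin (Vim, 0.901-fold) and fibronectin (Fn1, 1.04-fold) were level. Under the read minimum, Snai1 had 7 reads with TNF-α and 16 in control cells, a ratio of 0.425 (0.148 to 1.09). Twist1 had 3 with TNF-α and 11 in control cells, a ratio of 0.265 (0.0474 to 1.003), and Cdh2 had 2 with TNF-α and 3 in control cells. None of the 9 TGF-β targets and 13 Yap, Taz and Tead genes measured passed 1.5-fold in either direction, with Smad7 at 1.01-fold, Ctgf at 0.892-fold and Ankrd1 at 1.35-fold. None passed it after centring. The median log2 fold of the TGF-β targets was 0.03, but 0.28 after centring and 0.135 in the TGF-β pair. That of the Yap, Taz and Tead genes was 0.19, with 0.15 after centring and -0.08 in the TGF-β pair.

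Further lists that TNF-α is often linked with were near the background as measured. None of 14 measured interferon response genes passed the limits, with a median log2 fold of 0.10. With 1.54% of all genes over 1.5-fold higher and 0.629% lower, none in lists of this size is near the share of all genes. Oasl2 was 2.64-fold (1.74 to 4.09) at a low level, 0.348 RPKM with TNF-α and 0.132 RPKM in control cells, and Irf1, a direct NF-κB target, was 1.20-fold (1.12 to 1.30). None of 15 antigen presentation genes passed either (median 0.12, and 0.27 in the TGF-β pair), with H2-K1 at 1.00-fold. At a low level, Cd274 (PD-L1) was 2.04-fold (1.72 to 2.42) from 1.52 RPKM with TNF-α and 0.744 RPKM in control cells. Tap1 was 1.55-fold (1.155 to 2.10) from 0.524 RPKM with TNF-α and 0.337 RPKM in control cells. None of 16 genes of cell survival and death and none of 21 AP-1 and immediate early genes passed them, among them Sod2 at 1.04-fold, Bcl2l1 at 0.907-fold, Cflar at 1.30-fold and Jun at 0.891-fold. After centring 1 of the AP-1 and immediate early genes did, Egr1, at 1.38-fold (1.30 to 1.48) as measured and 1.57-fold centred. The lists of DNA replication (20 genes), mitosis (20) and cytosolic ribosomal proteins (24) had medians of -0.07, 0.00 and -0.05. After centring these medians were -0.09, -0.17 and -0.01, so the mitosis list stood lower. Mitochondrial mRNAs had a median of 0.07, and of -0.22 after centring, a change of sign that goes with their low GC content (37.1%).

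In the TGF-β pair 33 of 11664 genes (0.283%) were over 1.5-fold higher with TNF-α and 14 (0.12%) over 1.5-fold lower, and 92.9% lay within 1.25-fold. The 2 sets of higher genes shared 9 genes, which are 5.03% of the 179 and 27.3% of the 33, namely Bcl3, Cxcl16, Cxcl5, Nfkbia, Nfkbie, Prl2c2, Relb, Vcam1 and the unnamed model Gm26566. At the 2-fold limit they shared 6, which are 25% of the 24 and 46.2% of the 13 in the TGF-β pair. Of the 65 genes over 1.5-fold higher after centring, 12 were also over 1.5-fold higher in the TGF-β pair. Of the 44 genes over 1.5-fold lower after centring, 0 were also over 1.5-fold lower there, where 0.12% of all genes were. A lower call there needed more than 2 RPKM with TGF-β alone. Some of the 44, such as Igfbp5 (0.139 RPKM), Lrrc26 (0.0414 RPKM) and Cyp2c65 (0 RPKM), did not reach that. Across all 11278 genes with both values the folds had no common trend (Spearman's rho -0.10, or -0.07 when both were GC-centred), a description across genes that share their libraries. Whether the fold of a gene differed between the pairs was not tested.

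The cells expressed epithelial keratins (Krt8 at 1294 RPKM with TNF-α and 1625 RPKM in control cells) and Cdh1, but Epcam had 10 reads with TNF-α and 9 in control cells, and Cldn3, Cldn4 and Cldn7 had at most 14 in either. Of 8 alveolar and lung markers 3 had 100 reads or more. The surfactant genes Sftpa1, Sftpb and Sftpc had 1 to 2 reads with TNF-α and 0 to 6 in control cells, and Nkx2-1 stood at 0.803 RPKM with TNF-α and 0.883 RPKM in control cells, whereas Hnf4a stood at 72.1 RPKM with TNF-α and 74.0 RPKM in control cells. Haematopoietic markers summed to 1.84 RPKM with TNF-α and 1.91 RPKM in control cells (1 of 8 with 100 reads or more), endothelial markers to 0.136 RPKM with TNF-α and 0.141 RPKM in control cells (0 of 8), and fibroblast markers to 0.467 RPKM with TNF-α and 0.489 RPKM in control cells (1 of 8).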

How the data were processed

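Poly(A) RNA of CMT64 cells was sequenced by the study in 4 conditions with 1 library each. Adapter removal, mapping and counting were done by the authors in CLC Genomics Workbench (version not given in the sources used here), and the submitters' processing notes name mm10 as the build. The deposited counts are whole reads per gene, in exons, introns and exon junctions, and a read with several hits counts among the total but not among the unique exon reads. For the deposited RPKM values the authors divided total exon reads by exon length and mapped reads. Folds are ratios of RPKM, with 95% Clopper-Pearson intervals of the conditional binomial of the 2 read counts, and a library at 0 was set to a floor of 3 reads. Reads are not independent molecules, so intervals cover counting error only. GC content and length were taken from the longest transcript of each gene in the GENCODE M21 annotation of GRCm38 (the mm10 build), and GC-centred folds had the median log2 fold of 10 equal bins removed. Promoters (250 bases before to 50 after the start, 300 bases) came from RefSeq, where 9092 of the 11598 genes matched by symbol.

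Named were the 12 highest and 12 lowest folds above 2 RPKM without unnamed models, up to 6 members of each of 36 gene lists, all members of the lists of NF-κB subunits, feedback, TNF receptor signal and chemokines, and genes named by the study. Values of a few list members are not reported here. The members, lists and limits were chosen with earlier results of these data known. Alternatives were TMM scaling from edgeR (4.0.16), DESeq2 (1.42.0) size factors, GC and length bins, unique reads, minimums of 20, 500 and no reads, RPKM above 1 or 5, and pseudocounts of 0.1 and 1. Further ones, such as only genes with at least 50% unique reads, were chosen after seeing the data. Intervals and calls were tested on simulated reads. Calculations used R (4.3.3) and Python (3.11.15) with scipy (1.17.1), pandas (2.3.3), matplotlib (3.10.9) and numpy (2.4.6).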

Additional observations from a re-analysis of the deposited data

Results flagged for a closer look

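Of the genes named, 3 stood over 1.25-fold in opposite directions in the 2 pairs, with both counting intervals leaving out 1, and the difference between the pairs was not tested. Tnfsf9 was 0.564-fold for TNF-α over control (5.91 RPKM with TNF-α and 10.5 RPKM in control cells) and 1.51-fold (1.35 to 1.70) for TNF-α with TGF-β over TGF-β alone (7.44 RPKM with both cytokines and 4.91 RPKM with TGF-β alone). Selp, which encodes P-selectin, was 2.60-fold (1.85 to 3.72) in the first pair, from 126 reads with TNF-α and 47 in control cells, and 0.745-fold (0.650 to 0.853) in the second. Ankrd37 was 0.535-fold in the first and 1.28-fold (1.05 to 1.58) in the second. In reads outside the exon counts, introns took 8.16% of gene reads with TNF-α, against 6.72% in control cells, and 8.17% with both cytokines, against 8.5% with TGF-β alone. Without Gm26992, which had the 173051 intron reads given above, the shares were 7.94% with TNF-α and 6.60% in control cells.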

How the results depend on the processing

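No paired analysis was possible because each condition has 1 library. The counts were 24 and 7 genes over 2-fold higher and lower and 179 and 73 over 1.5-fold. GC bins gave 65 higher and 44 lower genes at 1.5-fold, and GC with length bins 60 and 38, with 4 lower genes at 2-fold. An RPKM limit of 1 gave 16 lower genes at 2-fold and 115 at 1.5-fold, and a limit of 5 gave 13 higher and 3 lower at 2-fold and 89 and 39 at 1.5-fold. A pseudocount of 1 RPKM gave 10 and 2 genes at 2-fold and 68 and 31 at 1.5-fold, and at least 50% unique reads left 4 lower genes at 2-fold. The 9 genes over 1.5-fold higher in both pairs became 16 with an RPKM limit of 1 and 5 with a limit of 5. The share of 1.5-fold higher genes with the κB motif, 11.1%, became 33.3% with GC bins, 30.6% with GC and length bins and 19.1% with a pseudocount of 1. For other alternatives these values stayed within 1.5 times, or for the share within its counting interval. No named gene past 1.5-fold changed sign under any alternative that kept it, but Gm49369 (0.207-fold), which has too few unique reads to enter that alternative, was 1.94-fold over them. Depth limits genes such as Cxcl2 and Ccl2, whose ratios rest on 1 control read.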
